A study of Mus musculus with 3 samples.

Results

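The genes described here encode lysosomal hydrolases, the proteins that carry their substrates, and proteins of the lysosomal membrane. They were taken from a list of 38 symbols and looked up by name in the deposited count table, where all 38 were found among 20586 genes. The cells were CD45+ cells sorted from the thalamus of mice 4 hours after intracerebroventricular injection, a gate that takes microglia, the resident macrophages of the brain, together with any other leukocytes. Droplet sequencing with unique molecular identifiers (UMIs) gave 7598 cells in 3 libraries, 1 per group. The cKO IL-33 library came from Cx3cr1-creER heterozygous : ST2 Flox homozygous mice that received IL-33, an alarmin cytokine related to IL-1 whose receptor chain ST2 is encoded by Il1rl1. WT IL-33 denotes Cx3cr1-creER heterozygous mice that received IL-33, and WT vehicle denotes Cx3cr1-creER heterozygous mice that received vehicle. All 3 groups therefore carried the inducible Cx3cr1-creER recombinase, which is expressed from the Cx3cr1 gene of microglia and other macrophages. The age of the mice, the number of animals per library and the use of tamoxifen were not stated in the labels. No vehicle-injected cKO library was analysed here. Each group was 1 library, so no test was made and nothing below was checked against replicates. Every interval below is a 95% interval that covers counting error only.

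Lysosomes are acidic organelles in which proteases, glycosidases and lipid enzymes take apart material that a cell has engulfed or drawn in from its own cytoplasm. Most of the enzymes are made as precursors, tagged with mannose 6-phosphate and sorted to the lysosome, where a proton pump keeps the pH low and membrane proteins protect the cell and export the products. Microglia depend on this machinery to digest debris, synaptic material and lipids, and inherited loss of many of these enzymes gives storage diseases that affect the brain. The transcription factor TFEB and its relatives bind a short palindromic element, CACGTG within a longer consensus, before the start of many of these genes.

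Depth, sex and cell state differed between the libraries along with treatment and genotype. The libraries held 2687 cells of cKO IL-33 and 2202 of WT IL-33, against 2709 of WT vehicle. Median UMIs per cell were 5119 in cKO IL-33 and 3951 in WT IL-33, against 5544 in WT vehicle. The deposited sex call was female for 2648 of the cKO IL-33 cells and for 1107 of the WT IL-33 cells, against 8 of the WT vehicle cells. The WT IL-33 library was thus of mixed sex, and 305 of its cells held both Xist and Y-linked UMIs, as did 3 cells of cKO IL-33 and 7 of WT vehicle. A single deposited cluster, numbered 1, held 35 of the cKO IL-33 cells and 1815 of the WT IL-33 cells, against 20 of the WT vehicle cells. Summed microglial markers were at 23336 CPM (UMIs of a gene per 1000000 UMIs of the library) in cKO IL-33 and 14937 in WT IL-33, against 21913 in WT vehicle. The markers of border-associated macrophages summed to 91.1 CPM in cKO IL-33 and 13.8 in WT IL-33, against 77.2 in WT vehicle, with Lyve1 at 0 in WT IL-33. Monocyte markers summed to 31.8 CPM in cKO IL-33 and 7.34 in WT IL-33, against 56.4 in WT vehicle. Ly6c2 and Chil3 were at 0 in all 3 libraries, and neutrophil markers summed to at most 0.274 CPM. B-cell markers summed to 60.9 CPM in cKO IL-33 and 133 in WT IL-33, against 55.0 in WT vehicle, with Igkc at 0 in both WT libraries and Cd79a also at 0 in WT IL-33. Dendritic-cell markers summed to 6.24 CPM in cKO IL-33 and 12.8 in WT IL-33, against 4.82 in WT vehicle, with Clec9a at 0 in all 3 libraries. The targeted gene, Il1rl1, was at 12.8 CPM in cKO IL-33 and 5.77 in WT IL-33, against 11.6 in WT vehicle, from 224, 70 and 212 UMIs. The labels do not say which exons are floxed, and UMIs counted from the 3' end of a transcript need not fall in them, so this level does not check the deletion. The 3 libraries shared 2 cell barcodes.

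The bases around the RefSeq transcription starts of these genes show 1 feature that some of them share. In windows of 300 bases (250 before to 50 after a RefSeq start, GRCm38.p6), which were at hand for 34 of the 38 genes, CACGTG, which is its own reverse complement, was present in 11 genes or 32.4%. Of all 27025 genes with such a window, 8.09% held it. The longer palindrome TCACGTGA, which contains CACGTG, was in 4 of the 34 genes (11.8%) against 1.12% of all genes. The windows of 5 genes whose levels are described below are shown 5′ to 3′ on the strand of the gene. The capitals mark the motifs searched for, which are CACGTG, TCACGTGA and, for Ctsc, GAGGAAGT on the opposite strand, a form of the site bound by the myeloid factor PU.1.
Ctsl, chr13:64370471-64370770, minus strand: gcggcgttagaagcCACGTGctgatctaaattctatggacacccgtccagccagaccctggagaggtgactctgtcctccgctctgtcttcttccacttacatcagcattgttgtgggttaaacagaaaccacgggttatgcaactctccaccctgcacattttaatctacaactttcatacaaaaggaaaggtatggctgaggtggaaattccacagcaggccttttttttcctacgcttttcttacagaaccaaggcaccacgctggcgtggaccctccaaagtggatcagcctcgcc
Naglu, chr11:101069844-101070143, plus strand: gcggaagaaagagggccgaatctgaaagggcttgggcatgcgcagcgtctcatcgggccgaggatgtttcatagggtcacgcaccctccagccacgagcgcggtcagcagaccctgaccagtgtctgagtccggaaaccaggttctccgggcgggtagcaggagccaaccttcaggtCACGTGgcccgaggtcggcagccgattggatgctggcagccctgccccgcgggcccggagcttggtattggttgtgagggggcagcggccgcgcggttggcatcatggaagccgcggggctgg
Lgmn, chr12:102439043-102439342, minus strand: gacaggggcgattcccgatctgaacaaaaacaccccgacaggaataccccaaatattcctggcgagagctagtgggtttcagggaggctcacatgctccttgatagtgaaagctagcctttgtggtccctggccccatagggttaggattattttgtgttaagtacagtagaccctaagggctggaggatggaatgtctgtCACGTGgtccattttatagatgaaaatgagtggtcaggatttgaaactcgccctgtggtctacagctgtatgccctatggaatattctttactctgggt
Ctsd, chr7:142387778-142388077, minus strand: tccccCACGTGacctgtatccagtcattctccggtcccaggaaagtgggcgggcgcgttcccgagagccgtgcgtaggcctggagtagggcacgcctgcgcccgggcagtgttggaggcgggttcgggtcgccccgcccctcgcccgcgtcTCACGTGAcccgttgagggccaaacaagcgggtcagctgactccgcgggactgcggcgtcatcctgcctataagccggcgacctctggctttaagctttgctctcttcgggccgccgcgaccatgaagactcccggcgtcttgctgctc
Ctsc, chr7:88277835-88278134, plus strand: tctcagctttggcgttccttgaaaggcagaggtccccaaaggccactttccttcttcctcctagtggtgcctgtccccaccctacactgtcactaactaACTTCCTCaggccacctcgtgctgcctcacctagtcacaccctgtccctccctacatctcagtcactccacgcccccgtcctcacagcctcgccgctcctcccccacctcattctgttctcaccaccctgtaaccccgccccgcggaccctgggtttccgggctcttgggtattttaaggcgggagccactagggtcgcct
The Lgmn window shown is that of 1 of 2 RefSeq starts, and the window of the other start held none of these motifs. The windows shown for Ctsl and Lgmn lie wholly inside the gene spans given below, so their motifs are not upstream of those spans. Ctsd has CACGTG at bases 6 and 153 of its window, the second of them inside TCACGTGA. GAGGAAGT, searched on both strands, was in the windows of Ctsc, Ctss, Gla and Gusb, or 4 of 34 genes against 3.69% of all genes. A match is a description of the letters in these windows, and a window without one says only that those letters are not there.

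Together the 38 genes gave 2.99% of all UMIs in cKO IL-33 and 2.37% in WT IL-33, against 2.83% in WT vehicle. Of the 38, 37 had a mean of at least 10 CPM over the 3 libraries and were counted. Gla, the alpha-galactosidase, was under that minimum with 72 UMIs in cKO IL-33 and 47 in WT IL-33, against 89 in WT vehicle. After IL-33 in WT mice, 2 of the 37 genes were at least 1.5-fold higher than in WT vehicle, where 21.8% of the 8385 genes at the same minimum were that much higher. At least 1.5-fold lower were 13 of the 37, where 19.1% of all genes were. The median log2 ratio, computed with a pseudocount of 1 CPM, was -0.30 over the 37 genes and 0.04 over all 8385. Intervals lay wholly above 1 for 4 of the genes (41.9% of all genes) and wholly below 1 for 29 (37.3% of all genes), and the other 4 intervals included 1. Whether an interval excludes 1, here and below, also depends on how many UMIs a gene has. A mean of at least 50 CPM was reached by 30 of the 37 genes, against 3573 of all 8385. In the female-called WT IL-33 cells against all WT vehicle cells, Cd68, Gm2a, Asah1, Fuca1 and Mcoln1 were within 1.5-fold. The set as a whole was thus lower in WT IL-33, and a pair of cysteine proteases stood on the opposite side. The summed markers of microglia, border-associated macrophages and monocytes and the depth per cell were also lower in that library. The summed B-cell and dendritic-cell markers were higher there, the B-cell sum with Cd79a and Igkc at 0. The part of markers and depth in the differences of the 37 genes was not tested.

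**Figure D1:**
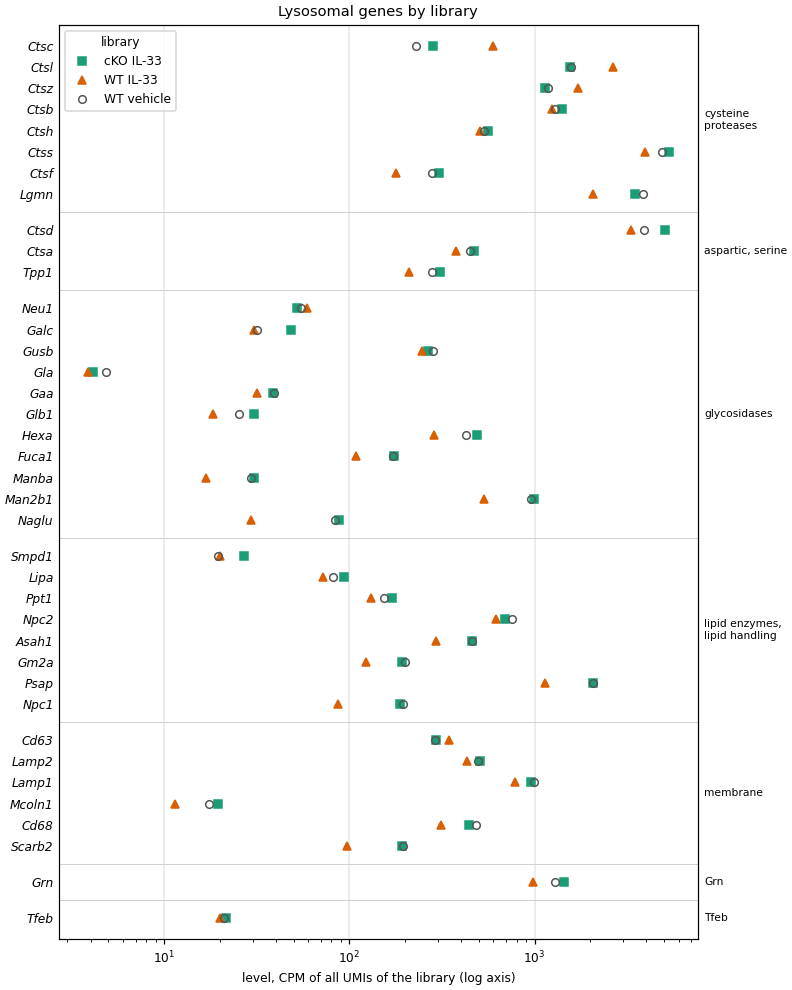
Level of each of the 38 genes in CPM (log axis), ordered by role, with 1 point per library (cKO IL-33, WT IL-33, WT vehicle). The cKO IL-33 and WT vehicle points mostly lie together, while the WT IL-33 point lies above them for Ctsc and Ctsl and below them for Naglu, Npc1 and Scarb2. Levels of different genes are not compared, since counts from transcript ends are not scaled by length.

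The cysteine cathepsins, papain-like proteases that do much of the protein degradation in lysosomes, and legumain differed among themselves in direction. Their summed level was 14011 CPM in cKO IL-33 and 12947 in WT IL-33, against 13850.2 in WT vehicle. Ctsc encodes cathepsin C, a dipeptidyl peptidase that also activates granule serine proteases, and lies at chr7:88278085-88310888 (+ strand) in GRCm38. It was at 284 CPM in cKO IL-33 and 596 in WT IL-33, against 230.0 in WT vehicle. The WT IL-33 library was highest, 2.59-fold higher (95% interval 2.49 to 2.69) than WT vehicle, and cKO IL-33 was 2.10-fold lower (95% interval 2.02 to 2.18) than WT IL-33. The level in cKO IL-33 was still 1.23-fold higher (95% interval 1.18 to 1.29) than in WT vehicle. Ctsl, at chr13:64359337-64370890 (- strand), encodes cathepsin L, a broad endopeptidase. It was at 1548 CPM in cKO IL-33 and 2656 in WT IL-33, against 1571 in WT vehicle, which is 1.69-fold higher (95% interval 1.66 to 1.72) in WT IL-33 than in WT vehicle. In cKO IL-33 it was 1.71-fold lower (95% interval 1.69 to 1.74) than in WT IL-33, and its interval against WT vehicle included 1. Ctsz, at chr2:174427493-174439039 (- strand), encodes cathepsin Z, a carboxypeptidase. Its level was 1134 CPM in cKO IL-33 and 1727 in WT IL-33, against 1186 in WT vehicle. That was 1.46-fold higher (95% interval 1.43 to 1.48) in WT IL-33 than in WT vehicle, just inside the 1.5-fold limit, and 1.52-fold lower (95% interval 1.49 to 1.55) in cKO IL-33 than in WT IL-33.

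Legumain, the asparaginyl endopeptidase that cleaves cathepsin precursors, went the other way. Lgmn, at chr12:102394084-102439813 (- strand), was at 3466 CPM in cKO IL-33 and 2069.6 in WT IL-33, against 3871 in WT vehicle. It was 1.87-fold lower (95% interval 1.84 to 1.90) in WT IL-33 than in WT vehicle and 1.67-fold higher (95% interval 1.65 to 1.70) in cKO IL-33 than in WT IL-33. Ctsf, which encodes cathepsin F, was at 303 CPM in cKO IL-33 and 179 in WT IL-33, against 278 in WT vehicle. It was 1.55-fold lower (95% interval 1.48 to 1.63) in WT IL-33 than in WT vehicle and 1.69-fold higher (95% interval 1.61 to 1.78) in cKO IL-33 than in WT IL-33. The remaining members of the family were within 1.5-fold in every comparison. Ctss, the cathepsin S that processes the invariant chain of MHC class II and stays active at neutral pH, was at 5303 CPM in cKO IL-33 and 3972 in WT IL-33, against 4891 in WT vehicle. Ctsb, an endopeptidase and dipeptidyl carboxypeptidase, was at 1411 CPM in cKO IL-33 and 1243 in WT IL-33, against 1293 in WT vehicle. Ctsh, an aminopeptidase, was at 561 CPM in cKO IL-33 and 505 in WT IL-33, against 531 in WT vehicle. Since gains and losses nearly balanced, the makeup of this protease set shifted more than its sum. The share of the set's UMIs that came from Ctsl was 11.1% in cKO IL-33 and 20.5% in WT IL-33, against 11.3% in WT vehicle. The share from Lgmn was 24.7% in cKO IL-33 and 16.0% in WT IL-33, against 27.9% in WT vehicle. Ctsc gave 2.03% in cKO IL-33 and 4.60% in WT IL-33, against 1.66% in WT vehicle. Ctsl, Ctsz and Ctsc thus took up a larger part of the set in WT IL-33 than in either other library, and Lgmn and Ctss a smaller part.

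The aspartic and serine proteases were within 1.5-fold of WT vehicle in WT IL-33, 3 of 3 genes, and all 3 were lower there. Ctsd, at chr7:142375911-142388038 (- strand), encodes cathepsin D, the main aspartic protease of lysosomes. It was at 5089.9 CPM in cKO IL-33 and 3309 in WT IL-33, against 3875 in WT vehicle. The cKO IL-33 library was the highest of the 3. Ctsd was 1.54-fold higher (95% interval 1.52 to 1.56) in cKO IL-33 than in WT IL-33, and 1.31-fold higher (95% interval 1.30 to 1.33) in cKO IL-33 than in WT vehicle. Ctsa, the protective protein and serine carboxypeptidase that forms a complex with the neuraminidase Neu1 and the beta-galactosidase Glb1, was at 473 CPM in cKO IL-33 and 378 in WT IL-33, against 449.5 in WT vehicle. Tpp1, the tripeptidyl peptidase lost in a form of neuronal ceroid lipofuscinosis, was at 309 CPM in cKO IL-33 and 210.4 in WT IL-33, against 279 in WT vehicle, or 1.33-fold lower (95% interval 1.26 to 1.39) in WT IL-33 than in WT vehicle.

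Glycosidases, which strip sugars from glycoproteins, glycolipids and glycosaminoglycans, summed to 2215 CPM in cKO IL-33 and 1366 in WT IL-33, against 2103 in WT vehicle. Of the 10 that were counted, 4 were at least 1.5-fold lower in WT IL-33 than in WT vehicle (19.1% of all genes). None was that much higher (21.8% of all genes). Naglu, at chr11:101070012-101077672 (+ strand), encodes the alpha-N-acetylglucosaminidase of heparan sulfate breakdown, the enzyme lost in a form of Sanfilippo disease. It was at 88.2 CPM in cKO IL-33 and 29.6 in WT IL-33, against 83.3 in WT vehicle. It had the largest difference of the 37 genes counted, 2.81-fold lower (95% interval 2.51 to 3.16) in WT IL-33 than in WT vehicle and 2.98-fold higher (95% interval 2.65 to 3.35) in cKO IL-33 than in WT IL-33. Its cKO IL-33 interval against WT vehicle included 1. Man2b1, the lysosomal alpha-mannosidase, was at 993 CPM in cKO IL-33 and 532 in WT IL-33, against 956 in WT vehicle. That was 1.80-fold lower (95% interval 1.75 to 1.85) in WT IL-33 than in WT vehicle. Manba, the beta-mannosidase, was at 30.6 CPM in cKO IL-33 and 16.9 in WT IL-33, against 29.3 in WT vehicle, and was 1.74-fold lower (95% interval 1.47 to 2.05) in WT IL-33 than in WT vehicle. Fuca1, the alpha-fucosidase, was at 174 CPM in cKO IL-33 and 108 in WT IL-33, against 172 in WT vehicle, or 1.59-fold lower (95% interval 1.49 to 1.69) in WT IL-33 than in WT vehicle. In all 4 genes the WT IL-33 level was below both other libraries, which lay close to each other.

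The other glycosidases were within 1.5-fold in WT IL-33 against WT vehicle. Hexa, the alpha subunit of beta-hexosaminidase that is lost in Tay-Sachs disease, was at 488 CPM in cKO IL-33 and 287 in WT IL-33, against 424 in WT vehicle. It was 1.48-fold lower (95% interval 1.42 to 1.54) in WT IL-33 than in WT vehicle, just inside the limit, and 1.70-fold higher (95% interval 1.63 to 1.77) in cKO IL-33 than in WT IL-33. Gusb, the beta-glucuronidase, was at 266 CPM in cKO IL-33 and 248 in WT IL-33, against 283 in WT vehicle. Glb1, the beta-galactosidase, was at 30.5 CPM in cKO IL-33 and 18.4 in WT IL-33, against 25.4 in WT vehicle, and was 1.66-fold higher (95% interval 1.42 to 1.95) in cKO IL-33 than in WT IL-33. Galc, the galactocerebrosidase of myelin lipid breakdown that is lost in Krabbe disease, was not lower by more than counting error in WT IL-33. It was at 48.5 CPM in cKO IL-33 and 30.5 in WT IL-33, against 31.8 in WT vehicle, so that the WT libraries were close together and cKO IL-33 was above both. Galc was 1.52-fold higher (95% interval 1.37 to 1.70) in cKO IL-33 than in WT vehicle and was the only 1 of the 37 genes at least 1.5-fold apart in that comparison. Neu1, the neuraminidase, was at 52.3 CPM in cKO IL-33 and 59.4 in WT IL-33, against 54.6 in WT vehicle, and its interval for WT IL-33 against WT vehicle included 1. Gaa, the acid alpha-glucosidase, ranged from 31.6 CPM in WT IL-33 to 39.0 CPM in WT vehicle and was within 1.5-fold in every comparison.

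Enzymes and carriers of lipids summed to 3892 CPM in cKO IL-33 and 2484 in WT IL-33, against 3924 in WT vehicle. In WT IL-33, 4 of 8 were at least 1.5-fold lower than in WT vehicle (19.1% of all genes). None was higher by that much (21.8% of all genes). Npc1, the membrane protein that exports cholesterol from lysosomes, was at 188 CPM in cKO IL-33 and 86.7 in WT IL-33, against 195 in WT vehicle. It was 2.25-fold lower (95% interval 2.10 to 2.41) in WT IL-33 than in WT vehicle and 2.17-fold higher (95% interval 2.02 to 2.33) in cKO IL-33 than in WT IL-33. Its soluble partner Npc2, which hands cholesterol to Npc1, was at 694 CPM in cKO IL-33 and 621 in WT IL-33, against 753 in WT vehicle. The difference in Npc2 was smaller, 1.21-fold lower (95% interval 1.18 to 1.25) in WT IL-33 than in WT vehicle. Psap, at chr10:60277627-60302597 (+ strand), encodes prosaposin, the precursor of the saposins that present sphingolipids to their enzymes. It was at 2066 CPM in cKO IL-33 and 1138 in WT IL-33, against 2059.8 in WT vehicle, or 1.81-fold lower (95% interval 1.78 to 1.85) in WT IL-33 than in WT vehicle and 1.82-fold higher (95% interval 1.78 to 1.85) in cKO IL-33 than in WT IL-33. Gm2a, the activator that presents the ganglioside GM2 to beta-hexosaminidase, was at 192 CPM in cKO IL-33 and 123 in WT IL-33, against 199 in WT vehicle. It was 1.62-fold lower (95% interval 1.52 to 1.72) in WT IL-33 than in WT vehicle. Asah1, the acid ceramidase, was at 461 CPM in cKO IL-33 and 293 in WT IL-33, against 462 in WT vehicle, and was 1.58-fold lower (95% interval 1.52 to 1.64) in WT IL-33 than in WT vehicle. For Npc1, Psap, Gm2a and Asah1 the cKO IL-33 interval against WT vehicle included 1. Lipa, the acid lipase for cholesteryl esters, was at 94.0 CPM in cKO IL-33 and 71.8 in WT IL-33, against 81.8 in WT vehicle. Ppt1, a thioesterase that removes palmitate from proteins, was at 169 CPM in cKO IL-33 and 131 in WT IL-33, against 154 in WT vehicle. Smpd1, the acid sphingomyelinase, was at 26.8 CPM in cKO IL-33 and 20.0 in WT IL-33, against 19.5 in WT vehicle. In Smpd1 the interval for WT IL-33 against WT vehicle included 1, and cKO IL-33 was 1.38-fold higher (95% interval 1.20 to 1.58) than WT vehicle.

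The membrane proteins summed to 2408 CPM in cKO IL-33 and 1978 in WT IL-33, against 2469.9 in WT vehicle. Of the 6, 3 were at least 1.5-fold lower in WT IL-33 than in WT vehicle (19.1% of all genes). Scarb2, at chr5:92441314-92506833 (- strand), encodes the receptor that carries glucocerebrosidase to lysosomes. It was at 192 CPM in cKO IL-33 and 96.7 in WT IL-33, against 194 in WT vehicle. The WT IL-33 level was 2.01-fold lower (95% interval 1.88 to 2.15) than that of WT vehicle, and cKO IL-33 was 1.98-fold higher (95% interval 1.86 to 2.12) than WT IL-33. Cd68, a heavily glycosylated protein of macrophage lysosomes that is widely used as a marker of phagocytic activity, was at 443 CPM in cKO IL-33 and 313 in WT IL-33, against 482 in WT vehicle. It was 1.54-fold lower (95% interval 1.48 to 1.60) in WT IL-33 than in WT vehicle and 1.41-fold higher (95% interval 1.36 to 1.47) in cKO IL-33 than in WT IL-33, within the limit. Mcoln1, the calcium channel through which lysosomes release calcium, was at 19.5 CPM in cKO IL-33 and 11.4 in WT IL-33, against 17.4 in WT vehicle. It rested on few UMIs and was 1.53-fold lower (95% interval 1.25 to 1.88) in WT IL-33 than in WT vehicle. The lining proteins of the membrane were within 1.5-fold in every comparison. Lamp1 was at 953 CPM in cKO IL-33 and 779 in WT IL-33, against 992 in WT vehicle. Lamp2, which also serves chaperone-mediated autophagy, was at 509 CPM in cKO IL-33 and 433 in WT IL-33, against 495 in WT vehicle. Cd63, a tetraspanin of late endosomes and exosomes, was the only membrane protein here that was higher in WT IL-33. It was at 292 CPM in cKO IL-33 and 344 in WT IL-33, against 289.7 in WT vehicle, or 1.19-fold higher (95% interval 1.14 to 1.24) in WT IL-33 than in WT vehicle.

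Progranulin, the growth factor precursor whose granulins act in lysosomes and whose loss causes a neuronal ceroid lipofuscinosis, was within 1.5-fold in every comparison. Grn was at 1442 CPM in cKO IL-33 and 979.9 in WT IL-33, against 1284 in WT vehicle, which is 1.31-fold lower (95% interval 1.28 to 1.34) in WT IL-33 than in WT vehicle. Tfeb, which encodes the factor that binds the CACGTG element, was at 21.6 CPM in cKO IL-33 and 20.0 in WT IL-33, against 21.1 in WT vehicle, and its interval included 1 in all 3 comparisons. Among the counted genes, 10 had CACGTG in their window, and of these 1 was at least 1.5-fold higher and 4 lower in WT IL-33 than in WT vehicle, with a median log2 ratio of -0.40. Of the 23 counted genes whose windows lacked it, 1 was higher and 7 lower, with a median of -0.28. Over all 8385 genes 21.8% were higher and 19.1% lower, with a median of 0.04. Ctsl and Naglu, whose windows both hold CACGTG, lay on opposite sides of WT vehicle. Whether the element bears on these levels was not tested.

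Set against WT IL-33, the cKO IL-33 library was higher in most of these genes. Of the 37 genes, 16 were at least 1.5-fold higher in cKO IL-33 (20.7% of all genes) and 3 were at least 1.5-fold lower (18.0% of all genes). The 3 lower genes were Ctsc, Ctsl and Ctsz, and Ctsz was 1.48-fold lower, within the limit, when mitochondrial and ribosomal genes were left out of the totals. Among female-called cells alone, Ctsd, Glb1, Gm2a, Galc, Asah1 and Fuca1 were within 1.5-fold. By role, the 16 higher genes were 7 glycosidases, 4 lipid genes, 2 cysteine proteases, 2 membrane proteins and the aspartic protease Ctsd. The median log2 ratio was 0.50 over the 37 genes and 0.01 over all genes. Intervals lay above 1 for 31 genes (39.9% of all genes) and below 1 for 5 (38.4% of all genes), and that of Tfeb included 1. Both comparisons share the WT IL-33 library, so their opposite signs are not independent observations.

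The comparison of cKO IL-33 with WT vehicle does not use the WT IL-33 library. In it 1 of 37 genes, Galc, was at least 1.5-fold higher, where 2.4% of all genes were, and 0 were at least 1.5-fold lower, where 1.05% of all genes were. With TMM factors Galc was 1.46-fold higher, within the limit. The median log2 ratio was 0.05 over the 37 genes and 0.06 over all genes. The 13 genes that were lower in WT IL-33 than in WT vehicle had log2 ratios of -0.16 to 0.16 between cKO IL-33 and WT vehicle. Over all 37 genes the range was -0.16 to 0.59. The 13 genes were picked with the WT vehicle library, which this comparison also uses. No such range over all genes is given here, so closeness to WT vehicle is not shown to be particular to them. Intervals lay above 1 for 16 genes (31.1% of all genes) and below 1 for 6 (16.0% of all genes), and 15 included 1. The genes furthest above WT vehicle after Galc were Smpd1, Ctsd and Ctsc. The cKO IL-33 cells were nearly all female-called and the WT vehicle cells nearly all male-called, so genotype, treatment and sex cannot be told apart in this comparison.

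**Figure D2:**
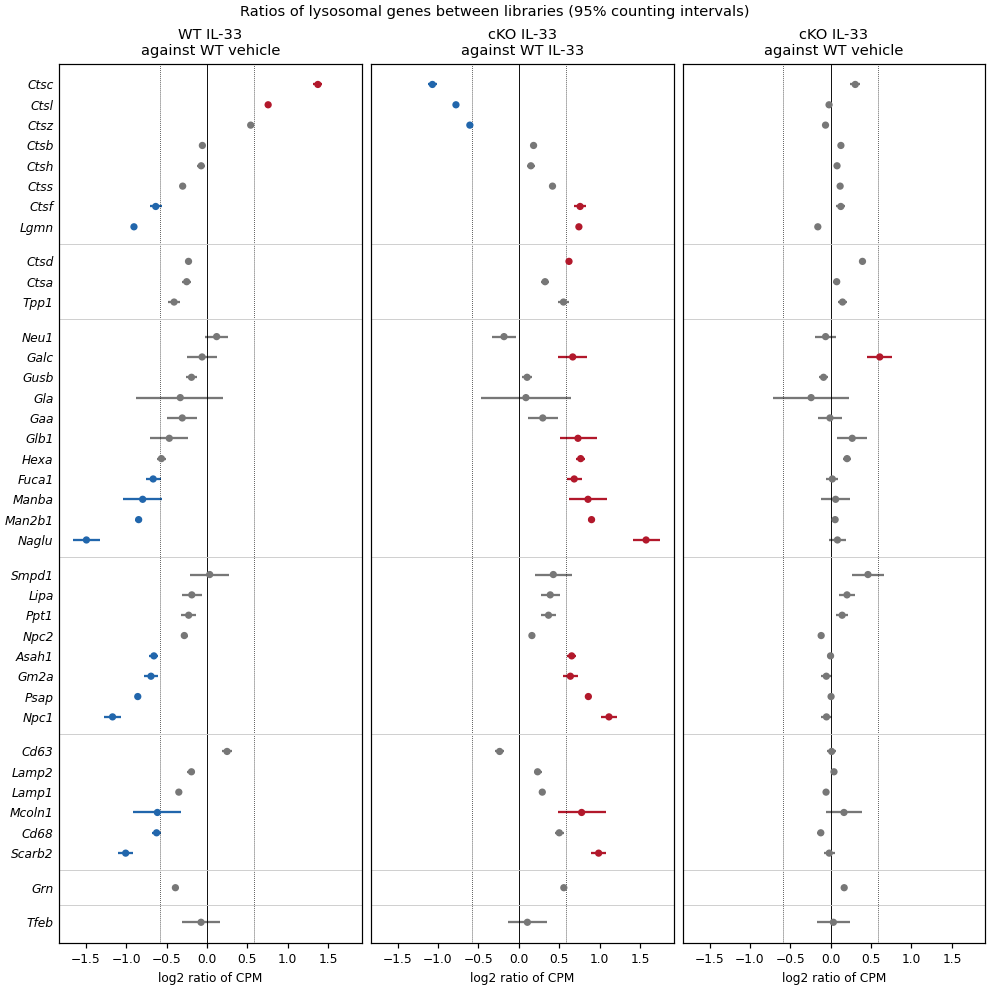
Log2 ratio of CPM for each gene in the 3 comparisons (WT IL-33 over WT vehicle, cKO IL-33 over WT IL-33, cKO IL-33 over WT vehicle), drawn without a pseudocount, with 95% counting intervals and dotted lines at 1.5-fold. Red points are at least 1.5-fold higher and blue points at least 1.5-fold lower. There are 2 red and 13 blue points in the first panel, 16 red and 3 blue in the second, and 1 red point (Galc) in the third.

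The differences could be followed in single cells after each cell was thinned to 3000 UMIs, which set the libraries to 1 depth and left out 86 cells of cKO IL-33 and 353 of WT IL-33, against 77 of WT vehicle. The summed UMIs of the 38 genes per thinned cell had a median of 88 in cKO IL-33 and 68 in WT IL-33, against 83 in WT vehicle. The 10th to 90th percentile of that sum was 68 to 112 in cKO IL-33 and 52 to 90 in WT IL-33, against 62 to 108 in WT vehicle. The 10th percentile, the median and the 90th percentile were all lowest in WT IL-33. The ranges overlapped widely, so the sum did not separate the cells of the libraries. By deposited cluster, the 38 genes gave 2.33% of the UMIs of WT IL-33 in cluster 1. In clusters 0, 2, 3 and 5 they gave 2.65%, 2.57%, 3.11% and 2.32% in WT IL-33, against 2.88%, 2.73%, 3.02% and 2.83% in WT vehicle. Ctsl had a mean of 4.68 UMIs per cell in cKO IL-33 and 8.09 in WT IL-33, against 4.74 in WT vehicle. Its median was 4 in cKO IL-33 and 7 in WT IL-33, against 4 in WT vehicle. Lgmn had a mean of 10.3 UMIs per cell in cKO IL-33 and 5.95 in WT IL-33, against 11.7 in WT vehicle, and a median of 10 in cKO IL-33 and 6 in WT IL-33, against 11 in WT vehicle. Psap, with a mean of 6.08 UMIs per cell in cKO IL-33 and 3.23 in WT IL-33, against 6.02 in WT vehicle, had a median of 6 in cKO IL-33 and 3 in WT IL-33, against 6 in WT vehicle. In each of these 3 genes the median of WT IL-33 differed from the other libraries in the same direction as the mean. Ctsd had a mean of 15.2 UMIs per cell in cKO IL-33 and 9.68 in WT IL-33, against 11.6 in WT vehicle. For Ctsc, whose mean was 0.847 UMIs per cell in cKO IL-33 and 1.82 in WT IL-33, against 0.692 in WT vehicle, counts per thinned cell were near 1 UMI and give no order of cells.

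**Figure D3:**
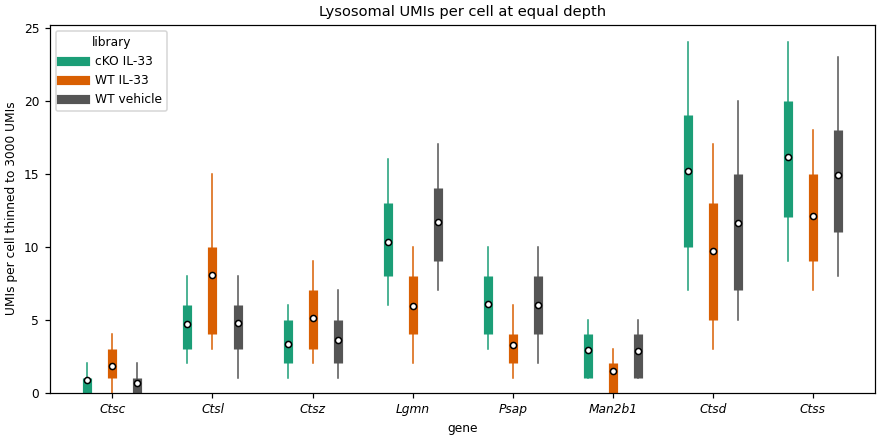
UMIs per cell after thinning every cell to 3000 UMIs, for 8 of the genes in cKO IL-33, WT IL-33 and WT vehicle. Thin lines run from the 10th to the 90th percentile, thick lines from the 25th to the 75th, and circles mark the mean. The WT IL-33 range sits higher than the other libraries for Ctsl and lower for Lgmn and Psap, and the ranges overlap in every gene shown.

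The deposited clusters carry numbers and no names, and they were formed from all genes of the same cells, so levels by cluster are a description. Most WT IL-33 cells were in cluster 1 and most cells of the other libraries in clusters 0, 2 and 3. The libraries were compared within clusters that had at least 50 cells of both, over the 27 genes with a mean of at least 100 CPM, and a gene was counted where it was at least 1.5-fold apart with an interval that excluded 1. In cluster 0, which held 1374 cells of cKO IL-33 and 144 of WT IL-33, against 1327 of WT vehicle, 1 gene was higher in WT IL-33 than in WT vehicle and 1 was lower. Of all 1759 genes at that minimum 11.5% were higher and 4.32% lower. The higher gene was Ctsc, at 271 CPM in cKO IL-33 and 335 in WT IL-33, against 209.9 in WT vehicle, or 1.60-fold higher (95% interval 1.36 to 1.87) in WT IL-33. The lower was Psap, at 2072 CPM in cKO IL-33 and 1421 in WT IL-33, against 2136 in WT vehicle. Scarb2, which was 2.01-fold lower over the whole WT IL-33 library, was in this cluster at 183 CPM in cKO IL-33 and 182 in WT IL-33, against 187 in WT vehicle. In cluster 2, 0 of the 27 genes were higher (9.72% of all genes) and 1, Gm2a, was lower (4.72% of all genes). In cluster 3, Ctsc and Cd63 were higher (17.4% of all genes) and Ctsf, Gm2a and Scarb2 lower (17.4% of all genes). There Cd63 was at 593 CPM in cKO IL-33 and 1052 in WT IL-33, against 519.7 in WT vehicle. In cluster 5, with 59 WT IL-33 cells against 88 WT vehicle cells, Ctsc was higher (17.6% of all genes) and 11 genes were lower (25.3% of all genes), among them Lgmn, which was 1.96-fold lower (95% interval 1.80 to 2.13). The few WT IL-33 cells in these clusters widen the intervals, and a gene not counted in a cluster is not shown to be equal there.

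Within the WT IL-33 library, the 1815 cells of cluster 1 differed from its 144 cells of cluster 0 in 8 of the 27 genes. Ctsc, Ctsl and Cd63 were higher in cluster 1 (13.6% of all genes), and Ctsd, Ctsf, Hexa, Npc1 and Scarb2 were lower (20.2% of all genes). Ctsl was at 2774 CPM in cluster 1, against 1798 CPM in cluster 0 of that library. Scarb2 was at 88.2 CPM in cluster 1, against 182 CPM in cluster 0. Ctsd differed between clusters of the WT IL-33 library. In cluster 0 it was at 5242 CPM in cKO IL-33 and 5022 in WT IL-33, against 3993 in WT vehicle. In cluster 2 it was at 4908 CPM in cKO IL-33 and 5166 in WT IL-33, against 3882 in WT vehicle, and in cluster 3 at 5714 CPM in cKO IL-33 and 5675 in WT IL-33, against 4183 in WT vehicle. The WT IL-33 cells of these 3 clusters were at about the level of cKO IL-33 and above WT vehicle. In cluster 5 they were below both, with Ctsd at 4553 CPM in cKO IL-33 and 2952 in WT IL-33, against 3571 in WT vehicle. In cluster 1, which holds most WT IL-33 cells, Ctsd was at 3104 CPM, below the level of all 3 libraries in clusters 0, 2 and 3. Between cKO IL-33 and WT vehicle, 0 of the 27 genes were counted in either direction in clusters 0, 2, 3, 4 and 5. There 1.76%, 1.65%, 1.88%, 1.76% and 2.67% of all genes were higher in cKO IL-33, and 0.284%, 0.853%, 0.171%, 0.512% and 1.36% were lower. In cKO IL-33 against WT IL-33, cluster 0 had 1 higher gene, Man2b1 (3.3% of all genes), and none lower (8.02%), and cluster 2 had 1 higher, Gm2a (2.27%), and none lower (6.82%). Cluster 3 had 4 higher (16.3%) and 2 lower (15.9%), and cluster 5 had 10 higher (23.3%) and 1 lower (16.1%).

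**Figure D4:**
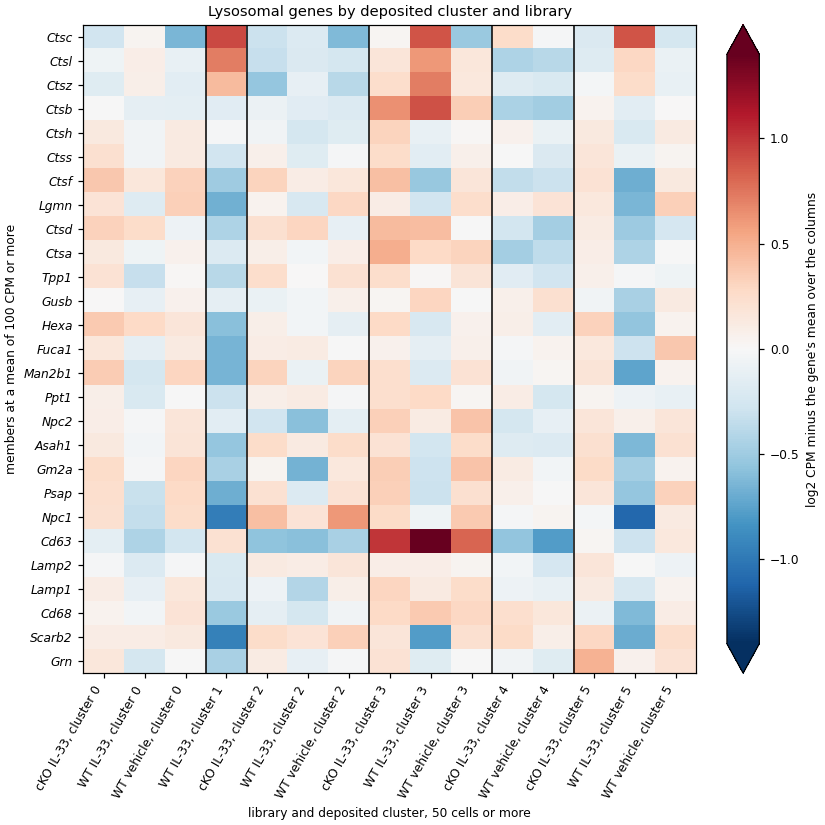
Log2 CPM of the 27 genes with a mean of at least 100 CPM (rows, ordered by role) in each deposited cluster and library with at least 50 cells (columns), as the difference from the gene's mean over the columns. Red is above and blue below that mean. In WT IL-33, Ctsc is high and Scarb2 low in clusters 1, 3 and 5, and Lgmn and Psap are low in clusters 1 and 5, while the cKO IL-33 and WT vehicle columns of the same cluster differ less. Psap of WT IL-33 is also below the other libraries in cluster 0 and below cKO IL-33 in cluster 3.

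Because WT IL-33 held cells of both sexes, the sex of the other libraries could be set against it in part. Its 802 female-called cells without Y-linked UMIs and its 1095 male-called cells did not differ by 1.5-fold in any of the 27 genes, where 3.64% of all genes were higher and 0.682% lower in the female-called cells. The female-called cells were the higher in 25 of the 27 genes, with a median log2 ratio of 0.19 and a range of -0.34 to 0.48. The same count and median over all genes are not given here, so these values do not set the 27 genes apart from others. The cells of each sex also differed in state, since 74.2% of the female-called cells and 85.5% of the male-called cells were in cluster 1, and the part of that difference in the levels was not tested. Ctsc was at 520.0 CPM in female-called WT IL-33 cells and 657 CPM in male-called WT IL-33 cells, against 230.0 CPM in all WT vehicle cells. Ctsl was at 2516 CPM in female-called WT IL-33 cells and 2837 CPM in male-called WT IL-33 cells, against 1571 CPM in all WT vehicle cells. Both sexes of WT IL-33 were thus above WT vehicle in these genes, and in Psap and Lgmn both were below it. Psap was at 1220.2 CPM in female-called WT IL-33 cells and 985 CPM in male-called WT IL-33 cells, against 2059.8 CPM in all WT vehicle cells. Lgmn was at 2165 CPM in female-called WT IL-33 cells and 1823 CPM in male-called WT IL-33 cells, against 3871 CPM in all WT vehicle cells. Against WT vehicle, the female-called WT IL-33 cells had 2 genes higher (17.0% of all genes) and 6 lower (19.1%). The male-called WT IL-33 cells had 2 higher (18.7%) and 12 lower (27.1%) than the male-called WT vehicle cells. Ctsc and Ctsl were the higher genes in both.

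Genes of the same pathway outside the 38 were taken from 7 lists of 112 genes, of which 95 had a mean of at least 10 CPM. In WT IL-33 against WT vehicle, 5 of these were at least 1.5-fold higher and 27 lower, with a median log2 ratio of -0.35. Those shares stand beside 21.8% and 19.1% of all genes. In cKO IL-33 against WT IL-33, 30 of the 95 were higher (20.7% of all genes) and 5 lower (18.0% of all genes). In cKO IL-33 against WT vehicle 0 of the 95 were higher (2.4% of all genes) and 0 lower (1.05% of all genes). The V-ATPase is the proton pump that acidifies lysosomes. In WT IL-33 against WT vehicle, 1 of its 17 counted subunits was higher (21.8% of all genes) and 3 lower (19.1%). The higher was Atp6v0c, a subunit of the ring that carries protons, at 494 CPM in cKO IL-33 and 866 in WT IL-33, against 498 in WT vehicle. The lower were Atp6v0a1, Atp6v0a2 and Atp6v1g1, and Atp6v0a2 was at 159.7 CPM in cKO IL-33 and 79.0 in WT IL-33, against 156 in WT vehicle. Of 17 other lysosomal enzymes, 1 was higher (21.8% of all genes) and 7 lower (19.1%). Acp2, an acid phosphatase, was at 204 CPM in cKO IL-33 and 346 in WT IL-33, against 175 in WT vehicle, or 1.98-fold higher (95% interval 1.89 to 2.07) in WT IL-33 than in WT vehicle. Arsb, a sulfatase of dermatan sulfate breakdown, was at 578 CPM in cKO IL-33 and 355 in WT IL-33, against 672 in WT vehicle, and the iduronate sulfatase Ids was 1.86-fold lower (95% interval 1.66 to 2.09) in WT IL-33 than in WT vehicle.

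Of 17 other membrane proteins and transporters, 1 was higher (21.8% of all genes) and 6 lower (19.1%) in WT IL-33 than in WT vehicle. Among those at a mean of at least 50 CPM, the largest differences were in Tpcn1, a cation channel of endolysosomes, and Slc29a3, a nucleoside transporter. Tpcn1 was at 69.9 CPM in cKO IL-33 and 22.8 in WT IL-33, against 78.8 in WT vehicle. Slc29a3 was at 376 CPM in cKO IL-33 and 141 in WT IL-33, against 410.2 in WT vehicle. Both were more than 2-fold lower in WT IL-33 than in either other library, as was Slc36a1, an amino acid transporter, at 109 CPM in cKO IL-33 and 40.3 in WT IL-33, against 92.5 in WT vehicle. Cd164, a sialomucin, was 1.90-fold lower (95% interval 1.83 to 1.98) in WT IL-33 than in WT vehicle. The sorting receptors split. M6pr, the cation-dependent mannose 6-phosphate receptor that brings new hydrolases to the lysosome, was at 135 CPM in cKO IL-33 and 287 in WT IL-33, against 136 in WT vehicle. It was 2.12-fold higher (95% interval 2.01 to 2.23) in WT IL-33 than in WT vehicle. Sort1, sortilin, an alternative sorting receptor for prosaposin and other cargo, was at 142 CPM in cKO IL-33 and 52.9 in WT IL-33, against 108 in WT vehicle. It was 2.04-fold lower (95% interval 1.86 to 2.23) in WT IL-33 than in WT vehicle. The retromer subunits Vps29 and Vps35 had intervals that included 1 in WT IL-33 against WT vehicle. Of 11 genes of the sorting list, 1 was higher (21.8% of all genes) and 1 lower (19.1%).

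Among 14 genes of the TFEB family and of nutrient sensing at the lysosome, 1 was higher (21.8% of all genes) and 6 lower (19.1%). Fnip1, a partner of folliculin, was at 113 CPM in cKO IL-33 and 50.4 in WT IL-33, against 109 in WT vehicle. Lamtor1 and Lamtor4, subunits of the Ragulator complex, were 1.81-fold lower (95% interval 1.70 to 1.93) and 1.80-fold lower (95% interval 1.67 to 1.94) in WT IL-33 than in WT vehicle. Rraga, a Rag GTPase that Ragulator holds at the lysosome, was on the other side, at 48.3 CPM in cKO IL-33 and 75.4 in WT IL-33, against 47.0 in WT vehicle. The inhibitors of the cysteine proteases were measured by 2 genes at the minimum, Cst3 and Cstb, and neither was 1.5-fold apart. Cst3, the secreted cystatin C, was at 27867 CPM in cKO IL-33 and 28162 in WT IL-33, against 23774 in WT vehicle. Of 17 autophagy genes 0 were higher (21.8% of all genes) and 4 lower (19.1%). Uvrag, a regulator of vesicle fusion, was at 108 CPM in cKO IL-33 and 48.9 in WT IL-33, against 95.6 in WT vehicle. Map1lc3a, an LC3 protein of the autophagosome, was 1.53-fold lower (95% interval 1.39 to 1.68) in WT IL-33 than in WT vehicle, and Gabarapl2 and Map1lc3b were within 1.5-fold, at 1.48-fold lower and 1.38-fold lower.

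**Figure D5:**
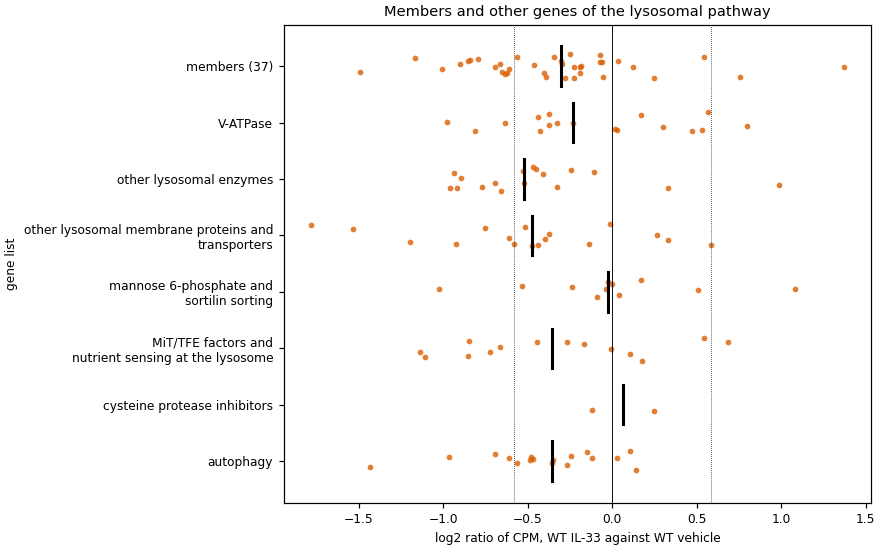
Log2 ratio of CPM of WT IL-33 over WT vehicle, without a pseudocount, for the 37 counted genes (top row) and for the 7 other lists of the pathway, with 1 point per gene, a bar at each list's median and dotted lines at 1.5-fold. Most points lie below 0, with the median of the 37 genes at -0.30, and the rightmost point of the top row is Ctsc.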

How the data were processed

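The deposited table holds raw counts, UMIs per gene and cell, and its barcodes were assigned to libraries through the second deposited table. Per the file headers, it gives the library, sex call, cluster number and cell-cycle phase of each cell, and the mitochondrial and ribosomal percent of its UMIs. Cell Ranger 5.0, Seurat 4.0.1 and GRCm38 are named in the submitters' processing notes without their roles. The sources used here do not give the authors' cell filters or any doublet removal, and no doublet caller was run here.

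UMIs of all deposited cells were summed per library (12127214 to 18269042 UMIs) and expressed as CPM of the library's UMIs, with exact Poisson intervals. Ratios have exact conditional binomial (Clopper-Pearson) intervals. PCR and the spread between animals are not covered. Since an IL-33 response changes many genes, a CPM also moves with the rest of the library. Values were given for every gene with a mean of at least 50 CPM or at least 1.5-fold apart in a comparison, and of each other list for up to 4 genes with the largest absolute log2 ratio of WT IL-33 against WT vehicle among those with a mean of at least 50 CPM. A gene that this rule names is not reported here. Values of a few other genes were given after they were seen. The genes and lists were chosen with earlier results of these data known. Gene positions are from GENCODE M21. Python 3.11.15, numpy 2.4.6, scipy 1.17.1 and pandas 2.3.3 were used, and edgeR 4.0.16 in R 4.3.3 gave TMM factors as an alternative. The arithmetic was tested on simulated sums. Alternatives covered scaling, minimum, pseudocount, depth, sex, cell-cycle phase and cells left out.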

Additional observations from a re-analysis of the deposited data

How the results depend on the processing

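No paired analysis was possible because each group is 1 library, and no replicate could be left out. Across 14 alternatives each, the median stayed below 0 in WT IL-33 against WT vehicle and above 0 in cKO IL-33 against WT IL-33. In cKO IL-33 against WT vehicle 12 were run, and it was near 0 throughout, at 0.05 in the report, -0.01 with TMM factors and -0.02 with median-of-ratios size factors. In WT IL-33 against WT vehicle, the median log2 ratio of the 37 genes was -0.39 with totals that leave out mitochondrial and ribosomal genes and -0.41 in sex-matched cells. With female-called WT IL-33 cells against all WT vehicle cells, an alternative chosen after seeing the data, it was -0.23 and 8 genes were at least 1.5-fold lower. At a mean of at least 100 CPM, and with an interval that excluded 1, 6 of 27 genes were lower there, beside 19.1% of all genes. Ctsc and Ctsl remained at least 1.5-fold higher in that comparison under all alternatives. In cKO IL-33 against WT IL-33, 10 genes were at least 1.5-fold higher in sex-matched cells, with a median of 0.40. The median was 0.43 with median-of-ratios size factors, and 0.59 for all cKO IL-33 cells against male-called WT IL-33 cells, also chosen after seeing the data. Over all genes the medians of these alternatives were -0.01, -0.06 and 0.05 in the same order. In cKO IL-33 against WT vehicle, the count of higher genes, 1 in the report, was 0 with totals that leave out mitochondrial and ribosomal genes, with TMM factors, with median-of-ratios size factors and at a minimum of 50 CPM, and 2 in G1-called cells. The cause was not tested. Apart from that 19.1%, shares of all genes at least 1.5-fold apart under the alternatives are not given in this section. The counts under the alternatives therefore do not set these genes apart from others. At least 1 alternative took 5 genes (Cd68, Gm2a, Asah1, Fuca1, Mcoln1) inside 1.5-fold in WT IL-33 against WT vehicle, 7 (Ctsz, Ctsd, Gm2a, Galc, Glb1, Asah1, Fuca1) in cKO IL-33 against WT IL-33 and 1 (Galc) in cKO IL-33 against WT vehicle. Of the values of single genes, 284 moved by more than their counting interval, 1122 did not, and none that was at least 1.5-fold apart changed sign. Depth limits Gla, Mcoln1 and the clusters with few WT IL-33 cells. Treatment, genotype, sex and the animals of a library cannot be told apart with 1 library per group.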
